A study of Mus musculus with 4 samples.

Results

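The genes described here are 10 members of the Hippo pathway's output arm, measured by RNA sequencing of cultured mouse hair follicle mesenchyme. They are the coactivators Yap1 and Wwtr1 (which encodes TAZ), the DNA-binding partner Tead1, and 7 genes known as YAP and TAZ targets, namely Cyr61 (also called Ccn1), Ctgf (also called Ccn2), Ankrd1, Axl, Amotl2, Ajuba and Lats2. The genes were taken from a list of names, and each was found once among the 51826 gene IDs of the count table. All 10 were among the 16734 genes kept for testing, whose raw counts averaged 10 or more across libraries.

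Dermal papilla cells (DPCs, from the hair bulb) and dermal sheath cells (DSCs, from the sheath around the follicle) came from the vibrissae (whiskers) of C57BL/6J mice that carried an EGFP transgene and were aged 5 to 6 weeks. The labels give the genotype of all groups as WT, and all cells were expanded in DMEM by serial replating. Passage 3 is called low passage and passage 9 high passage, and with the 2 cell types this gave 4 groups. Each group was 1 library, so no difference between groups has a replicate check, and the 4 pairwise comparisons share libraries.

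YAP and TAZ are transcriptional coactivators that bind no DNA themselves and act mainly through the TEAD factors. When the Hippo kinases are active, LATS kinases phosphorylate YAP and TAZ, which keeps them in the cytoplasm, whereas a spread cell shape, a stiff substrate and actin tension favour their entry into the nucleus. This regulation acts largely on the proteins, so transcript levels of Yap1 and Wwtr1 do not report their activity, and target transcripts are commonly read in their place. In hair follicle mesenchyme and other fibroblast-like cells, the pathway is known for its links to proliferation, matrix production and contractility.

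Total counts per library lay between 34981284 and 47604059, and a count of 0 allowed at most 0.0659 to 0.0837 CPM (counts scaled to library size with the TMM method). All 6 fibroblast markers were detected, and their summed level was 17500 CPM at passage 3 and 6340 CPM at passage 9 in DPCs, and 25900 and 21500 CPM in DSCs. Col1a1 and Col1a2 gave most of that sum in each library. Pdgfra was higher at passage 9, at 304 and 811 CPM in DPCs and 121 and 266 CPM in DSCs. Col3a1 and Thy1 were higher at passage 9 in DSCs alone, and the other markers were lower in both cell types. Of the 8 papilla and sheath markers, Sox2 (3.91 to 45.6 CPM), Ncam1 (46.7 to 342 CPM), Vcan (64.0 to 139 CPM) and Acta2 were well above the floor in every library, whereas Alpl, Corin and Lepr were under 1 CPM throughout. Lef1 was counted 508 times at passage 3 and 2 times at passage 9 in DPCs, and 101 times at passage 3 and 55 times at passage 9 in DSCs. The keratinocyte markers Krt5, Krt14, Krt15 and Cdh1 were at 0 in every library, while Dsp, which encodes desmoplakin, reached 2307 counts in high-passage DSCs. In these bulk samples, fewer cells of a type and less RNA per cell cannot be told apart.

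Because TEAD factors recognise a short DNA sequence, the 250 bases upstream of each RefSeq transcription start (build GRCm38.p6) were searched for GGAATG, the core TEAD motif, on both strands (its reverse complement is CATTCC). Windows were at hand for 8 of the 10 genes. The motif was present in 7 of these 8, all but Lats2, and in 14.4% of 27025 genes with a window. Both Lats2 windows, at chr14:57746124-57746373 and chr14:57734419-57734668, lie inside the Lats2 span, which ends at 57758388. The bases before that end, where this minus-strand gene begins, were not searched. TGACTCA, the motif of AP-1 (a factor that often binds beside TEAD), was found on either strand in 0 of the 8 genes and in 5.16% of all genes. The 2 whole windows below belong to Cyr61, the reference YAP target, at chr3:145649986-145650235 on the minus strand, and to Ajuba, whose window held the motif at 2 places, at chr14:54577662-54577911 on the minus strand. They are written 5′ to 3′ towards the start site, with the motif in capitals.
Cyr61: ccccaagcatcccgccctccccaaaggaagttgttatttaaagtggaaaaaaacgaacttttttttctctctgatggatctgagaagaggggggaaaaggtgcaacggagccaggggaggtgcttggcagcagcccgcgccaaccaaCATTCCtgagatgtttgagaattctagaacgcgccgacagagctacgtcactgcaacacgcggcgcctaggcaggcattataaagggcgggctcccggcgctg
Ajuba: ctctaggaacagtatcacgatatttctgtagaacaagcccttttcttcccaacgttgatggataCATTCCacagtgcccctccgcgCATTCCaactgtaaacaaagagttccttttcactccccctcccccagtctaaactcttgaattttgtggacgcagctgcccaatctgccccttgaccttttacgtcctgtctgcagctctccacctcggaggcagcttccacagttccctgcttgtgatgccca
For the remaining genes with the motif, 30 bases around it are shown to compare the flanks, again with the motif in capitals and on the strand of the gene. They lie at chr9:8004720-8004749 (Yap1, minus), chr3:57576029-57576058 (Wwtr1, minus), chr19:36120037-36120066 and chr19:36119950-36119979 (Ankrd1, minus), chr9:102717727-102717756 (Amotl2, plus) and chr7:25788949-25788978 (Axl, minus).
Yap1: cgggagtctgcaGGAATGtagcgacgcgca
Wwtr1: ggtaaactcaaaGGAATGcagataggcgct
Ankrd1, far site: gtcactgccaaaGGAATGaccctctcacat
Ankrd1, near site: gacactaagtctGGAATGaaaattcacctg
Amotl2: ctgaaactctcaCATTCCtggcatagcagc
Axl: ggaaattctacaGGAATGtttaccagaccc
Counted from the start site to its first base, the motif stood 141 bases upstream in Yap1, 103 in Cyr61, 65 in Amotl2 and 233 in Axl. In Ankrd1 it stood at 210 and 123 bases, and in Ajuba at 186 and 164 bases. In the GENCODE M21 annotation, all 250 bases of the Ankrd1 window overlap exons of Ankrd1, so both of its sites lie in an exon. Of the Amotl2 window, 136 bases overlap Amotl2 exons, and the site lies inside the gene's span, which starts at 102716672. In 1 of the 2 Wwtr1 windows, 34 bases overlap Wwtr1 exons. Wwtr1 has 2 start sites in RefSeq, and the same motif lay 136 bases before one and 170 before the other. These are letter matches, and binding of a TEAD factor was not measured.

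**Figure D1:**
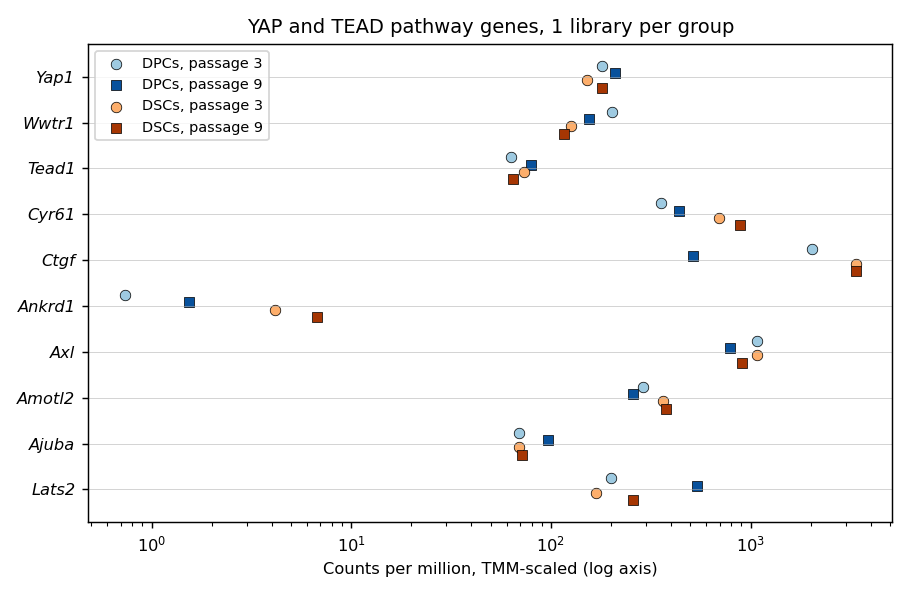
Level of each of the 10 genes in the 4 libraries, as TMM-scaled CPM on a log axis, with 1 point per library (circles passage 3, squares passage 9, blue DPCs, orange DSCs). Ctgf stands apart in high-passage DPCs at 513.1 CPM against 2036 to 3372 CPM in the other libraries, Lats2 is highest in high-passage DPCs at 538.8 CPM, and Ankrd1 lies below 7 CPM throughout. Gene length is not corrected for, so levels are to be compared along a line and not between lines.

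Both coactivators were expressed in every library and moved little with passage. The level of Yap1, which encodes YAP (ENSMUSG00000053110, chr9:7931999-8004596 of GRCm38, minus strand), was 180.3 CPM at passage 3 and 209.8 CPM at passage 9 in DPCs, and 152.5 CPM at passage 3 and 180.6 CPM at passage 9 in DSCs. It was thus higher at passage 9 in both cell types, by a log2 fold change of 0.22 in DPCs (95% counting interval 0.17 to 0.27) and 0.24 in DSCs (0.20 to 0.29), which is under 2-fold. These intervals compare 2 libraries and cover counting error only.

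Wwtr1 (ENSMUSG00000027803, chr3:57455649-57575910, minus strand) had passage differences of the opposite sign. Its level was 203 CPM at passage 3 and 155.3 CPM at passage 9 in DPCs, and 125.6 CPM at passage 3 and 116.3 CPM at passage 9 in DSCs, so both DPC libraries lay above both DSC libraries. The passage difference on the log2 scale was -0.39 (-0.44 to -0.34) in DPCs and -0.11 (-0.17 to -0.05) in DSCs. Between the cell types, DPCs exceeded DSCs by 0.69 (0.64 to 0.75) at low passage and 0.42 (0.36 to 0.47) at high passage. No difference of either coactivator reached 2-fold.

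Levels of different genes were compared per length, as FPKM (fragments scaled to transcript length and library depth). The ratio of Wwtr1 to Yap1 in FPKM was 0.896 at passage 3 and 0.584 at passage 9 in DPCs, and 0.637 at passage 3 and 0.512 at passage 9 in DSCs. Yap1 was the more abundant of the pair in each library, and its lead was wider at high passage in both cell types. Their summed level was 84.1 and 81.9 FPKM in DPCs and 59.7 and 62.3 FPKM in DSCs, at low and high passage respectively.

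Tead1 (ENSMUSG00000055320, chr7:112679318-112906807, plus strand) was the most abundant of the 4 TEAD genes per length in every library, although its own changes were small. It stood at 62.98 CPM at passage 3 and 79.61 CPM at passage 9 in DPCs, and 72.96 CPM at passage 3 and 64.93 CPM at passage 9 in DSCs. With passage the log2 difference was 0.34 (0.26 to 0.42) in DPCs and -0.17 (-0.24 to -0.09) in DSCs, a gap of 0.51 (0.40 to 0.61) between the cell types. On the FPKM scale the DPC difference was smaller, at 0.17, and the sign was kept in both cell types.

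Among the other TEAD genes, the balance differed between passages. In FPKM, Tead3 made up 30.5% and 29.0% of the TEAD transcripts in low-passage DPCs and DSCs and 40.8% in high-passage cells of either type. Tead1 made up 48.7% at passage 3 and 48.2% at passage 9 in DPCs, and 55.5% at passage 3 and 47.2% at passage 9 in DSCs. Tead4 was the least abundant, at 2.06% to 5.93%.

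Tead2 had 27.76 CPM at passage 3 and 12.77 CPM at passage 9 in DPCs, and 11 CPM at passage 3 and 16.07 CPM at passage 9 in DSCs, so low-passage DPCs stood above the other libraries. Its log2 passage difference was -1.12 in DPCs and 0.54 in DSCs, but in FPKM it was not past 2-fold in DPCs and the DSC value was -0.07, of the opposite sign. Tead4, at 11.85 CPM in low-passage DSCs and 5.709 CPM in high-passage DSCs, fell in DSCs by 1.05 on the log2 scale. The value of Tead4 in DPCs was -0.57, and Tead3 had 0.47 in DPCs and 0.40 in DSCs.

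The Vgll genes encode cofactors that compete with YAP and TAZ for TEAD. Vgll3 was near constant at 320.9, 323.2, 352.4 and 334.2 CPM in low- and high-passage DPCs and low- and high-passage DSCs. Vgll4, known as a repressor of TEAD activity, had a log2 passage difference of 0.16 in DPCs and 0.63 in DSCs. No count of Vgll1 or Vgll2 was recorded in any library.

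**Figure D2:**
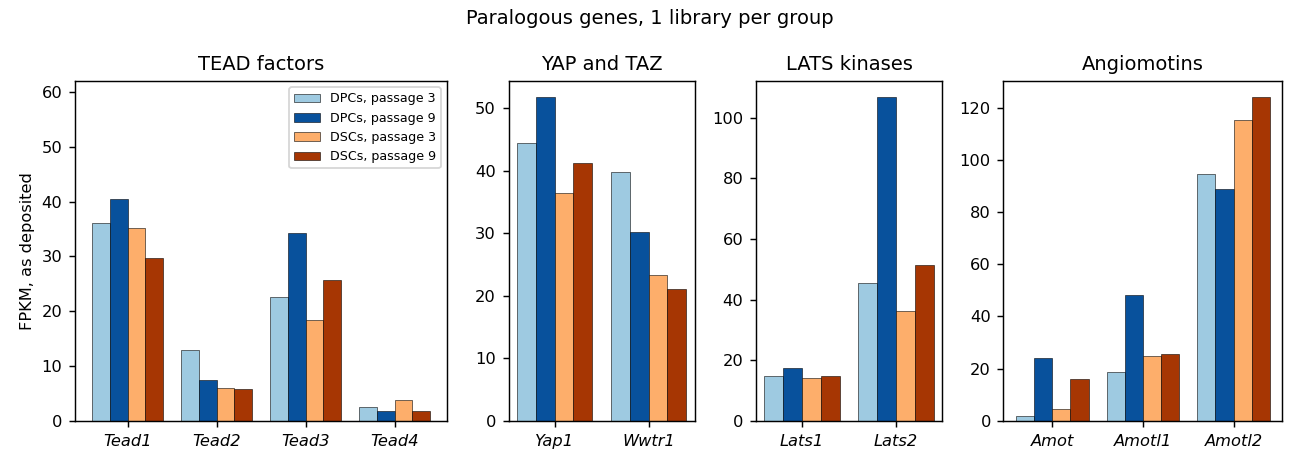
Deposited FPKM of paralogous genes (bars start at 0, 1 library per bar, a separate vertical scale for each panel) for the TEAD factors, YAP and TAZ, the LATS kinases and the angiomotins. Tead1 leads its family in each library, Lats2 in high-passage DPCs stands at 106.7 FPKM against 36.09 to 51.37 FPKM elsewhere, and Amotl2 leads the angiomotins with 88.67 to 124 FPKM.

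The classical targets did not move together. Ctgf, a secreted matricellular protein of the CCN family that is widely used as a YAP readout (ENSMUSG00000019997, chr10:24595442-24598683, plus strand), had 2036 CPM at passage 3 and 513.1 CPM at passage 9 in DPCs, and 3362 CPM at passage 3 and 3372 CPM at passage 9 in DSCs. It fell in DPCs by 1.99 on the log2 scale (interval -2.01 to -1.97), a 3.968-fold lower level. In DSCs the difference was 0.00 (-0.01 to 0.02). Of all tested genes in DPCs, 4.4% had a lower value than Ctgf.

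The cell types were farther apart in Ctgf at high passage. DPCs were below DSCs by a log2 difference of -0.72 (-0.74 to -0.71) at low passage and -2.72 (-2.74 to -2.69) at high passage, the latter a 6.572-fold lower level. An antisense gene, Gm15270, overlaps Ctgf. It had 180, 194, 359 and 318 counts in low- and high-passage DPCs and low- and high-passage DSCs, far fewer than Ctgf in each library.

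Cyr61, the other CCN family member among these targets (ENSMUSG00000028195, chr3:145646976-145649981, minus strand), had 357.4 CPM at passage 3 and 438.7 CPM at passage 9 in DPCs, and 692.8 CPM at passage 3 and 886.7 CPM at passage 9 in DSCs. Both DSC libraries lay above both DPC libraries, and high passage lay above low passage in each cell type. The log2 passage difference was 0.30 (0.26 to 0.33) in DPCs and 0.36 (0.33 to 0.38) in DSCs. DPCs were below DSCs by -0.95 (-0.99 to -0.92) at low passage and -1.02 (-1.04 to -0.99) at high passage, where the difference just passed 2-fold.

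The balance of the CCN pair differed in high-passage DPCs. In FPKM, Ctgf exceeded Cyr61 by 4.81 times in low-passage DPCs, 4.09 times in low-passage DSCs and 3.21 times in high-passage DSCs. In high-passage DPCs the ratio was 0.987, at 196.1 FPKM of Ctgf and 198.7 FPKM of Cyr61.

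Ankrd1, a nuclear and sarcomeric ankyrin repeat protein (ENSMUSG00000024803, chr19:36111965-36119844, minus strand), was by far the scarcest of the 10 genes per length, with 0.3768 to 3.245 FPKM. Its raw counts were 27 at passage 3 and 55 at passage 9 in DPCs, and 157 at passage 3 and 307 at passage 9 in DSCs. The order matched that of Cyr61, with both DSC libraries above both DPC libraries. The cell type difference was -2.42 (-3.14 to -1.90) at low passage and -2.10 (-2.58 to -1.72) at high passage, and 1.8% and 3.6% of tested genes had lower values.

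The passage difference of Ankrd1 rests on few counts in DPCs. It was 1.01 (0.37 to 1.78) in DPCs and 0.70 (0.42 to 0.99) in DSCs, so in DPCs the value sat just past 2-fold while its interval reached well below it. Ankrd1 is also expressed in muscle, and the 7 muscle markers summed to 42, 0.474, 48.9 and 24.1 CPM in the same order of libraries. Acta1 gave most of that sum in each library, Myod1 and Ckm were at 0 in every library, and the part of muscle cells in the Ankrd1 level was not tested.

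Axl, a receptor tyrosine kinase (ENSMUSG00000002602, chr7:25757273-25788705, minus strand), had 1073 CPM at passage 3 and 788.9 CPM at passage 9 in DPCs, and 1081 CPM at passage 3 and 909.2 CPM at passage 9 in DSCs. It was lower at high passage in both cell types, with a log2 difference of -0.44 (-0.47 to -0.42) in DPCs and -0.25 (-0.27 to -0.23) in DSCs, under 2-fold. Axl is also expressed in macrophages, whose 7 markers were all detected. They summed to 123, 85.3, 175 and 106 CPM in low- and high-passage DPCs and low- and high-passage DSCs. That order of libraries equals the order of Axl in CPM. In FPKM it does not, because Axl was higher in low-passage DPCs (289.7) than in low-passage DSCs (260.6). Lyz2 gave most of the sum in each library. Cd14 alone was higher at passage 9, at 5.63 and 20.9 CPM in DPCs and 7.07 and 12.1 CPM in DSCs. The part of such cells in the Axl level was not tested.

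**Figure D3:**
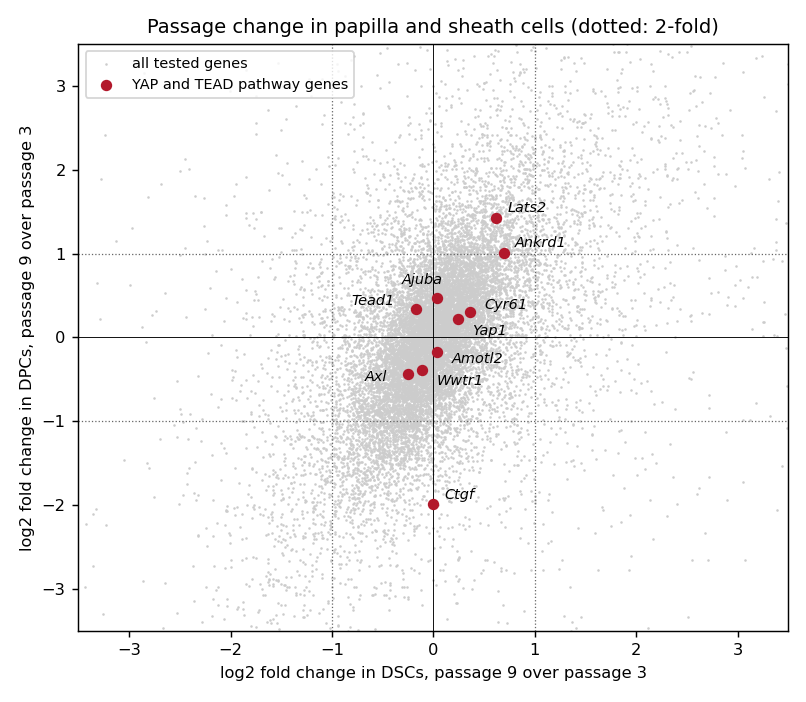
Passage difference in DSCs (horizontal) against DPCs (vertical) as log2 fold change of passage 9 over passage 3, with the 10 genes in red, the tested genes within the axis limits in grey and dotted lines at 2-fold. Ctgf lies at -1.99 in DPCs and 0.00 in DSCs, and Lats2 at 1.43 and 0.62.

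The 3 remaining members act on LATS kinases or on YAP itself, and Lats2 and Amotl2 are known as feedback inhibitors that YAP induces. Lats2, a LATS kinase (ENSMUSG00000021959), was 200.3 CPM at passage 3 and 538.8 CPM at passage 9 in DPCs, and 167.8 CPM at passage 3 and 257.9 CPM at passage 9 in DSCs. It rose in DPCs by 1.43 on the log2 scale (1.39 to 1.47), a 2.689-fold higher level, above 90.1% of tested genes. In DSCs the difference was 0.62 (0.58 to 0.66), a 1.537-fold higher level and under the 2-fold line.

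The passage difference of Lats2 was thus 0.81 (0.75 to 0.87) larger in DPCs than in DSCs on the log2 scale, and at high passage DPCs exceeded DSCs by 1.06 (1.03 to 1.10). In FPKM its ratio to Lats1, the other LATS kinase, was 3.06 at passage 3 and 6.1 at passage 9 in DPCs, and 2.55 at passage 3 and 3.51 at passage 9 in DSCs. The deposited table gives Lats2 a span on chromosome 14 of 57642077 to 57758388, whereas GENCODE M21 gives 57689662 to 57758388. The longer span also overlaps Xpo4, which had 1275, 850, 1359 and 1043 counts in low- and high-passage DPCs and low- and high-passage DSCs. GENCODE M21 also places Gm49361 on the same strand over exons of Lats2, and reads shared with overlapping genes cannot be told apart from those of Lats2 here.

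Ajuba, a LIM-domain protein that binds LATS kinases and restrains them (ENSMUSG00000022178, chr14:54567469-54577661, minus strand), had 69.34 CPM at passage 3 and 96.37 CPM at passage 9 in DPCs, and 69.61 CPM at passage 3 and 71.38 CPM at passage 9 in DSCs. High-passage DPCs lay above the other 3 libraries, which were close together. The log2 passage difference was 0.47 (0.40 to 0.55) in DPCs and 0.04 (-0.04 to 0.11) in DSCs.

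Amotl2, an angiomotin that binds YAP and holds it at cell junctions (ENSMUSG00000032531, chr9:102716672-102733418, plus strand), had 291 CPM at passage 3 and 257.2 CPM at passage 9 in DPCs, and 364.5 CPM at passage 3 and 375.7 CPM at passage 9 in DSCs. Both DSC libraries lay above both DPC libraries. The log2 passage difference was -0.18 (-0.22 to -0.14) in DPCs and 0.04 (0.01 to 0.08) in DSCs. With halved counts, which apply if both mates of a read pair were counted, the interval in DSCs included 0.

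Counted at 2-fold, Lats2 and Ankrd1 rose and Ctgf fell with passage in DPCs, 2 and 1 of the 10 genes, where 16.1% of all tested genes were higher and 15.0% lower. In DSCs 0 genes rose and 0 fell, against 8.55% and 6.21% of all tested genes. At low passage only Ankrd1 of the 10 was lower in DPCs than in DSCs (7.86% of all tested genes were lower), and 0 were higher (5.43%). At high passage Lats2 was higher in DPCs (9.11% of all genes), and Ctgf, Ankrd1 and Cyr61 were lower (11.0%). At 4-fold, the threshold of the study, 0 of the 10 genes rose and 0 fell with passage in DPCs (5.58% and 4.36% of all tested genes) or in DSCs (2.67% and 1.16%). Ctgf in DPCs sat at that line, and its value of -1.99 became -2.01 with total counts and -2.02 without a filter, which put it past 4-fold. Ankrd1 was past 4-fold lower in DPCs at low passage (2.77%) and at high passage, where Ctgf joined it (3.91%), and 0 genes were past 4-fold higher (1.52% and 2.5%). At high passage Ankrd1 was under 4-fold with a prior count of 10 (-1.97) and with FPKM (-1.91). Cyr61 was under 2-fold there with total counts (-0.92), with the filter raised to a mean count of 100 (-0.99) and with FPKM (-0.91).

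All of the 10 genes but Ankrd1 were abundant, and abundant genes passed 2-fold less often. Among the 6483 genes whose raw counts averaged 1000 or more, a limit chosen after seeing the data, 8.87% rose and 9.84% fell with passage in DPCs. Of these genes, 3.75% were higher and 5.94% lower in DPCs than in DSCs at high passage. The median log2 difference of the 10 genes was 0.26 in DPCs and 0.04 in DSCs with passage, beside 0.03 and 0.00 for all tested genes. Across the 40 differences of 10 genes in 4 comparisons, 36 counting intervals lay clear of 0.

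Passage and cell type were also fitted as additive terms over all 4 libraries with edgeR's quasi-likelihood test, in which the only residual degree of freedom is the disagreement between the responses of the 2 cell types. No gene of the 16734 passed an adjusted p of 0.05 for passage (0.0%; smallest adjusted p 0.1, 2822 genes at an unadjusted p under 0.05) or for cell type (0.0%; 0.0683 and 1381 genes). For Lats2 the common passage term was 1.02 with an edgeR adjusted p of 0.246, and for Ankrd1 the cell type term was -2.31 with an edgeR adjusted p of 0.239. DESeq2 on the same design called 955 genes for passage (5.71%), among them Lats2 with an adjusted p of 0.0398. It called 496 genes for cell type (2.96%), among them Ctgf (adjusted p 0.00944), Ankrd1 (0.0151) and Cyr61 (0.0244). The Ctgf term of -1.71 spans unlike differences, -0.72 at low passage and -2.72 at high passage, which an additive term does not separate.

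For the pathway around the 10 genes, fixed lists were read in the same libraries. Of 21 Hippo kinases and upstream regulators, 6 rose and 0 fell at 2-fold with passage in DPCs, where 16.1% of all tested genes rose and 15.0% fell. In DSCs 2 rose and 0 fell, beside 8.55% and 6.21% of all tested genes. Their median log2 difference was 0.32 in DPCs and 0.17 in DSCs, beside 0.03 and 0.00 for all tested genes, and 18 and 15 of the 21 were above 0. The largest values belonged to Dchs1, a protocadherin ligand of the Fat receptors, and Amot, the founding angiomotin.

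Dchs1 had 4.514 CPM at passage 3 and 233 CPM at passage 9 in DPCs, and 2.348 CPM at passage 3 and 38.34 CPM at passage 9 in DSCs, a rise of 5.67 in DPCs and 4.0 in DSCs on the log2 scale. Amot had 14, 159, 32.09 and 109.9 CPM in the same order, a rise of 3.5 in DPCs and 1.77 in DSCs. For both genes, each low-passage library lay below each high-passage library. The other rises in DPCs were Amotl1 (1.43), Stk3 (1.21), which encodes the kinase MST2, Fat4 (1.12), the receptor of Dchs1, and Limd1 (1.09), of which Amotl1, Stk3 and Fat4 were named after their values were seen. In FPKM, 5 of the 6 passed 2-fold, with Limd1 below it.

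Within the angiomotins, the lead of Amotl2 narrowed. Its ratio to Amotl1 in FPKM was 5.09 at passage 3 and 1.83 at passage 9 in DPCs, and 4.65 at passage 3 and 4.86 at passage 9 in DSCs. Only high-passage DPCs had a ratio below 4. Map4k4, a kinase that phosphorylates LATS and the regulator with the highest FPKM, had a log2 passage difference of -0.66 in DPCs and -0.70 in DSCs. Frmd6 (-0.45 in DPCs, 0.64 in DSCs) and Mob1a (0.76 and -0.23) had opposite signs in the 2 cell types.

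**Figure D4:**
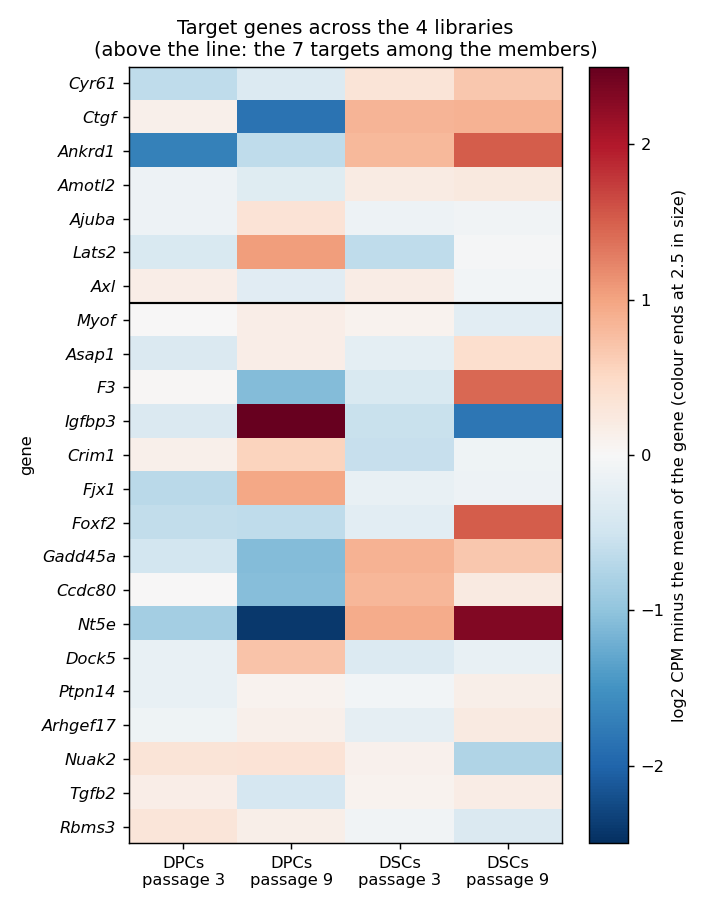
Log2 CPM of 23 target genes minus each gene's mean over the 4 libraries (blue below, red above, colour ends at 2.5 in size), with the 7 targets among the 10 genes above the line and 16 further targets below it. Ctgf is lowest in high-passage DPCs, while Lats2 and Igfbp3 are highest there.

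Among 16 further YAP and TAZ targets, 2 rose and 3 fell with passage in DPCs (16.1% and 15.0% of all tested genes), and 3 rose and 1 fell in DSCs (8.55% and 6.21%). Their medians were 0.09 and 0.13. Igfbp3, a secreted binding protein of insulin-like growth factors, had 22.9 CPM at passage 3 and 193.7 CPM at passage 9 in DPCs, and 19.9 CPM at passage 3 and 8.454 CPM at passage 9 in DSCs. It rose by 3.08 in DPCs and fell by 1.23 in DSCs on the log2 scale. F3, tissue factor, had 522.9, 240.9, 390.1 and 1389 CPM in the same order, a fall of 1.12 in DPCs beside a rise of 1.83 in DSCs.

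Nt5e, the ectonucleotidase CD73, also moved in opposite directions, with log2 differences of -1.54 in DPCs and 1.38 in DSCs. The remaining members past 2-fold, named after their values were seen, were Fjx1 (1.62) and Ccdc80 (-1.08) in DPCs and Foxf2 (1.75) in DSCs. At high passage, 3 of the 16 targets were higher and 5 lower in DPCs than in DSCs, beside 9.11% and 11.0% of all tested genes. Among the 7 targets of the 10 genes and the 16 others alike, both signs occurred in each cell type.

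**Figure D5:**
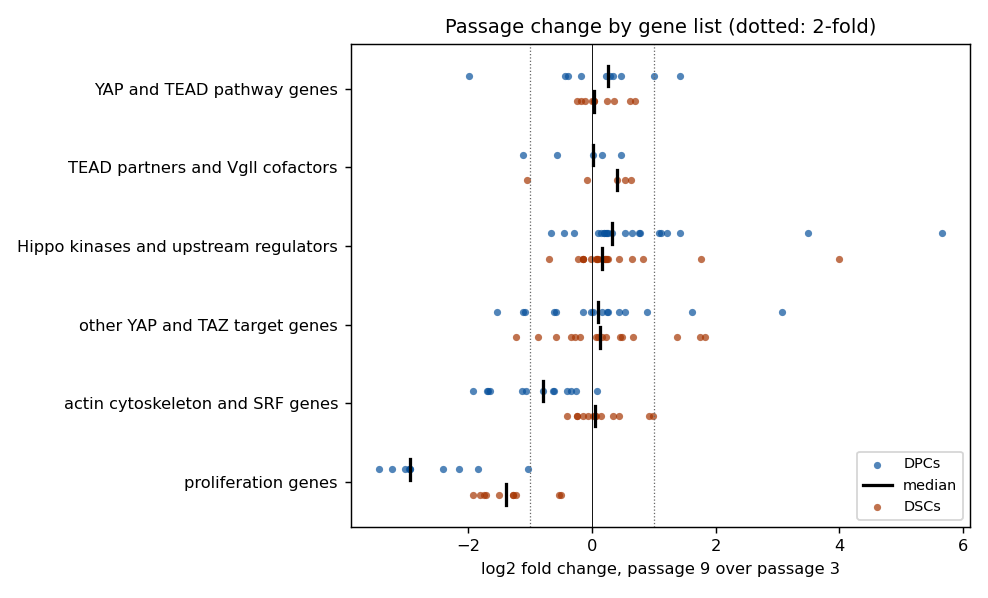
Log2 fold change of passage 9 over passage 3 for every tested gene of each list (points, blue DPCs, orange DSCs), with the list median as a black bar and dotted lines at 2-fold. The median of the actin and SRF genes is -0.80 in DPCs and 0.05 in DSCs, and that of the proliferation genes -2.94 and -1.39.

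Actin cytoskeleton and SRF genes, many of which encode the contractile machinery that feeds into YAP regulation, were mostly lower at high passage in DPCs. Of 13 genes, 6 fell and 0 rose in DPCs, where 15.0% of all tested genes fell and 16.1% rose. In DPCs 12 of the 13 were below 0 and the median was -0.80, beside 0.03 for all tested genes. In DSCs 0 rose and 0 fell (8.55% and 6.21% of all tested genes) and the median was 0.05, although Cnn1 passed 2-fold there in FPKM. Tpm2, a tropomyosin, had 441.5 CPM at passage 3 and 135.8 CPM at passage 9 in DPCs, and 296 CPM at passage 3 and 308.2 CPM at passage 9 in DSCs.

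Cnn1, smooth muscle calponin, had 151.6, 46.93, 88.48 and 175.7 CPM in that order of libraries, with log2 differences of -1.69 in DPCs and 0.99 in DSCs. Zyx, the focal adhesion protein zyxin, had -0.41 in DPCs and 0.92 in DSCs. Acta2, smooth muscle actin and a sheath marker, fell in DPCs by 1.93 and had a value of -0.40 in DSCs. High-passage DPCs were the lowest of the 4 libraries for each of Tpm2, Cnn1, Zyx, Acta2 and Ctgf, and also for the summed fibroblast markers. Among those markers, Pdgfra alone was highest there, at 811 CPM against 121 to 304 CPM elsewhere, while the others were lowest there. The part of the fibroblast markers in the levels of these genes was not tested.

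All 10 proliferation genes fell with passage in DPCs (9 in FPKM), and 8 fell in DSCs, beside 15.0% and 6.21% of all tested genes. Their medians were -2.94 and -1.39. On the log2 scale Ccnb1, cyclin B1, had differences of -3.45 in DPCs and -1.75 in DSCs, Ccna2, cyclin A2, of -3.24 and -1.93, and Plk1, a mitotic kinase, of -2.94 and -1.71. Top2a, topoisomerase II alpha and the list's most abundant gene per length, had differences of -2.15 in DPCs and -1.28 in DSCs. Of the 10 pathway genes, only Ctgf fell past 2-fold beside them, and in DPCs alone. The part of proliferation in the level of any pathway gene was not tested.

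Finally, genes with a pattern most like that of 3 targets were listed by Euclidean distance of log2 CPM, centred on each gene's mean, over 4 libraries and 12191 genes averaging 100 or more raw counts. With so few libraries, many genes lie close to any pattern. Nearest to Cyr61 were Dhx58 (distance 0.07), Cnksr3 (0.09) and Ctsd (0.11). Nearest to Ctgf were Eml2 (0.17), Itga11 (0.19) and Lama2 (0.22), where Itga11 encodes a collagen-binding integrin and Lama2 a laminin chain. Among those near Ankrd1 were Fam26e (0.22) and Spock2 (0.24).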

How the data were processed

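RNA of 4 cultures, 1 per group, was sequenced as poly-T selected, paired-end Illumina libraries according to the study's methods (NEBNext kit), while the labels name a TruSeq kit. The authors deposited 1 table of raw counts per gene, whole numbers without normalization, and for each library a table of FPKM, which the authors scaled for transcript length and depth. The submitters' notes name Bowtie 0.12.2, mm8 and mm9 without a role. The deposited positions nevertheless match GENCODE M21 (GRCm38): 51633 of 51826 gene IDs were found there, 94.1% of them at the same position. The counting program and its use of strand are not given in the sources used here.

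Counts were scaled by TMM in edgeR 4.0.16 (R 4.3.3, limma 3.58.1), and genes averaging 10 or more raw counts were kept. Fold changes are log2 CPM differences after adding a prior count of 2, called at 2-fold. Intervals are 95% Clopper-Pearson intervals of the share of 1 library in the reads of both. The additive model used edgeR's quasi-likelihood test with Benjamini-Hochberg adjustment, with DESeq2 1.42.0 as an alternative, and the code was tested on simulated data. FPKM was put on a log2 scale with a pseudocount of 0.1. Upstream windows of 250 bases came from RefSeq (GRCm38.p6).

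The members and lists were chosen with earlier results of these data known. All 10 genes were named. From each list the text names up to 4 genes past 2-fold with 1 sign in both cell types, up to 3 with opposite signs and intervals clear of 0, the gene with the highest FPKM, and every measured TEAD gene, Vgll3 and Vgll4. Alternatives were other scalings (DESeq2 size factors, upper quartile, total counts), prior counts of 0.5 and 10, no filter or a mean of at least 100, FPKM, halved counts and a 4-fold call. Wwtr1 and Lats2 each had 2 windows, and Ctgf and Tead1 had none here. For each of Cyr61, Ctgf and Ankrd1 the 3 genes nearest in pattern were sought, and 1 of them is not reported here.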

Additional observations from a re-analysis of the deposited data

Results flagged for a closer look

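Some genes had passage differences of opposite sign in DPCs and DSCs, with both counting intervals clear of 0. With 1 library per group, the difference between the cell types was not tested. Each value is the log2 passage difference in DPCs minus that in DSCs. Among the 10 pathway genes it was 0.51 for Tead1 and -0.22 for Amotl2. For Tead1 the same value of 0.51 describes the cell type difference, which was negative at low passage and positive at high passage, although with FPKM the low-passage value was 0.04 and the change of sign was lost. For Amotl2 the sign in DSCs rests on a difference whose interval includes 0 when counts are halved.

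Among the other TEAD genes and the Hippo regulators, the value was -1.66 for Tead2, 1.23 for Limd1, -1.09 for Frmd6 and 0.99 for Mob1a. For Tead2 the sign in DSCs turned when FPKM was used in place of counts, at -0.07 against 0.54. Among the further targets it was 4.31 for Igfbp3, -2.95 for F3 and -2.92 for Nt5e. Among the actin and SRF genes it was -2.68 for Cnn1, -1.76 for Tpm2 and -1.33 for Zyx. For Tpm2 the sign in DSCs rests on a small difference of 0.06 (0.02 to 0.09).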

How the results depend on the processing

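The number of pathway genes that rose at 2-fold with passage in DPCs was 2, and became 1 with total counts, with a prior count of 10, without a filter and with FPKM, each time because Ankrd1 slipped under 2-fold. At 4-fold, the threshold of the study, it was 0 higher and 0 lower, and at high passage the number higher in DPCs than in DSCs went from 1 to 0. Past 4-fold, Ctgf fell in DPCs with total counts and without a filter. The number lower in DPCs at high passage went from 3 to 2 with total counts, with the filter raised to a mean count of 100 and with FPKM, each time by the loss of Cyr61. The sign held in 36 of the 40 differences under all 8 alternatives. Tead1 in DPCs against DSCs at low passage turned from -0.21 to 0.04 with FPKM, and the cause was not tested. The other 3 were differences close to 0: Ctgf with passage in DSCs, and Ajuba and Axl between the cell types at low passage. The genes called by the additive model depended on the test. For passage they went from 0 to 955 with the DESeq2 Wald test. For cell type they went from 0 to 496 with the DESeq2 Wald test, 5 with DESeq2 size factors and 13 with the filter raised to a mean count of 100. Each group holds 1 library, all numbered 1, so no pairing of replicate cultures could be analysed and no replicate could be left out. Counting error was small except for Ankrd1, and variation between cultures could not be measured.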
